A study of Mus musculus with 4 samples.

Results

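MHC class II molecules were followed at the level of RNA through the genes of both chains of H2-A (H2-Aa and H2-Ab1), the beta chain of H2-E (H2-Eb1), the invariant chain (Cd74), the peptide editors H2-DM (H2-DMa, H2-DMb1) and H2-O (H2-Oa, H2-Ob), and Ciita. Members were every probe set annotated to exactly 1 of these 9 gene symbols, which gave 11 probe sets of 7 genes, out of 20393 probe sets of 12394 genes on the Affymetrix mouse array. H2-DMb1 and H2-Ob were annotated only on probe sets that also name another gene (2 for H2-DMb1 and 1 for H2-Ob), so no value is given for either. The Cre-GFP group was bone marrow of Mll-AF4stop knock-in mice infected with a Cre-GFP retrovirus, intended to activate the otherwise silent Mll-AF4 fusion, and the control group was marrow of such mice infected with a control GFP retrovirus (MIG). All mice carried the Mll-AF4stop allele and had received 5-fluorouracil 5 days before infection. Cells carrying GFP were sorted 2 days later and grown under lymphoid conditions for 14 days, and each of the 2 arrays per group received target amplified from 20 ng of RNA. The control virus is MIG-Cre in the series' design text but GFP control in the labels of the samples, which were followed; fusion activity and Cre itself cannot be told apart in this design. Strain and age are not given in the sources used here, and nothing says that the 2 arrays of each group stem from different animals, so p-values rest on the spread of 4 arrays alone, and that spread may be technical.

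A class II molecule is an alpha and a beta chain that carry peptides to the surface of B cells, dendritic cells and macrophages. The invariant chain fills the groove during assembly, H2-DM exchanges its remnant for peptide, and H2-O restrains H2-DM, mainly in B cells. CIITA is the coactivator that switches these genes on together. It binds no DNA itself and is held by an enhanceosome of RFX, NF-Y and CREB proteins on the X and Y boxes just upstream of the gene starts. Early B cell progenitors carry little class II in the mouse, and the amount grows as B cells mature.

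Promoter stretches are shown because CIITA acts on its targets through a shared layout of boxes. RefSeq promoters (GRCm38.p6, 250 bases before to 50 after a gene's start) were listed for 6 of the 9 members: H2-Aa, H2-Eb1, H2-Oa, H2-Ob, H2-DMa and H2-DMb1. The letters ATTGG are the core of the Y box and the reverse complement of CCAAT, and GCAAC is found in the X box. Both were searched on both strands. They were chosen with the members' sequences in view and do not overlap each other. The stretch from 110 to 31 bases before the start is given 5′ to 3′ on the gene's strand for 3 measured genes, with these letters in capitals where they form the pair.
H2-Aa: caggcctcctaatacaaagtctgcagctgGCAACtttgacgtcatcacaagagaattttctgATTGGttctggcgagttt
H2-Eb1: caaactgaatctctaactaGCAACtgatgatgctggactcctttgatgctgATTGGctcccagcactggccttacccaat
H2-Oa: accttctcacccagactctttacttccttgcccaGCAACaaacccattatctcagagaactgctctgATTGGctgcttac
These stretches lie at chr17:34287854-34287933 on the minus strand (H2-Aa), chr17:34305757-34305836 on the plus strand (H2-Eb1) and chr17:34092269-34092348 on the plus strand (H2-Oa) of GRCm38.p6. GCAAC began 33 bases before ATTGG in H2-Aa and H2-Oa and 32 bases before it in H2-Eb1, and H2-Ob held the pair at 30 bases. So 4 of the 6 genes, which have 7 promoter entries, held the pair with a spacing of 20 to 40 bases on the sense strand. Of 32851 promoter entries of the same length, 0.521% did so. With letters chosen in view of the members' sequences, this contrast is no test of enrichment. ATTGG alone stood on the sense strand in a promoter of each of the 6 genes and on either strand in 37.4% of all promoters, and GCAAC on either strand in 35.2%. H2-DMb1 had ATTGG 61 bases before its start without the paired GCAAC, and H2-DMa had 2 promoter entries, neither with the pair. A match of letters is a description and not a binding site.

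H2-Ab1, the beta chain of H2-A, was lower in Cre-GFP on 2 of its 3 probe sets, and H2-Aa, its alpha chain, on 1 of its 2. The other members, H2-Eb1, Cd74, H2-DMa, H2-Oa and Ciita, had overlapping groups and log2 differences between −0.16 and 0.21 on their brightest probe sets. No member passed the threshold, an adjusted p of 0.05 over all probe sets in limma. In that test 0 of 20393 probe sets passed (percent called 0%), with 976 at an unadjusted p under 0.05 (4.79%). Both Cre-GFP arrays lay below both control arrays for 3 of the 11 member probe sets and for 14.6% of all probe sets. No member lay above in both, against 15.4% of all probe sets. The same 3 members had an unadjusted p under 0.05 with a lower Cre-GFP mean, as did 2.42% of all probe sets, and 0 members had one with a higher Cre-GFP mean, against 2.36% of all probe sets. The median log2 difference of the 11 member probe sets was −0.09, and that of all probe sets 0.0019.

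The brightest H2-Ab1 probe set (1450648_s_at) read 5.91 and 5.45 on the log2 intensity scale in Cre-GFP 1 and 2, against 6.39 and 6.81 in control 1 and 2. The Cre-GFP arrays were both below the control arrays, and the arrays within each group were 0.45 (Cre-GFP 1 minus 2) and −0.42 (control 1 minus 2) apart. The log2 difference was −0.92 ± 0.21 (limma's SE, n = 2 per group), a 1.90-fold lower intensity, with a 95% interval from −1.45 to −0.40 and an adjusted p of 0.70 in limma (unadjusted p = 0.0053). H2-Ab1 stood 153rd of all probe sets by unadjusted p. The second probe set (1451721_a_at) read 5.94 and 5.88 in Cre-GFP, against 6.29 and 6.36 in control. It had tighter groups and a smaller log2 difference of −0.41 ± 0.12, a 1.33-fold lower intensity (limma adjusted p = 0.80). The third (1425477_x_at) read 4.50 and 4.45 in Cre-GFP, against 4.40 and 4.72 in control, below the array's 20th percentile (4.69 to 4.76) on all arrays but control 2, and its groups overlapped (log2 difference −0.09 ± 0.13). The H2-Ab1 probe sets thus disagreed in size, and only 2 of the 3 set the groups apart.

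H2-Aa, the partner chain, read 6.52 and 6.70 in Cre-GFP, against 7.81 and 7.04 in control on its brighter probe set (1435290_x_at). Both Cre-GFP arrays were below both control arrays, yet the control arrays were 0.78 apart, close to the difference between the groups. That log2 difference was −0.82 ± 0.27, a 1.76-fold lower intensity, with a 95% interval from −1.48 to −0.16 (limma adjusted p = 0.93, unadjusted p = 0.023). It was −0.43 without control 1 and −1.20 without control 2, so the size for H2-Aa depended on 1 array. The dimmer H2-Aa probe set (1452431_s_at) read 4.67 and 4.61 in Cre-GFP, against 4.61 and 4.66 in control, under the 20th percentile on all 4 arrays, and its log2 difference was 0.00 ± 0.09. H2-Ab1 and H2-Aa were ordered oppositely within each group: of the Cre-GFP arrays the first was higher for H2-Ab1 and the second for H2-Aa, and of the control arrays the second was higher for H2-Ab1 and the first for H2-Aa.

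**Figure D1:**
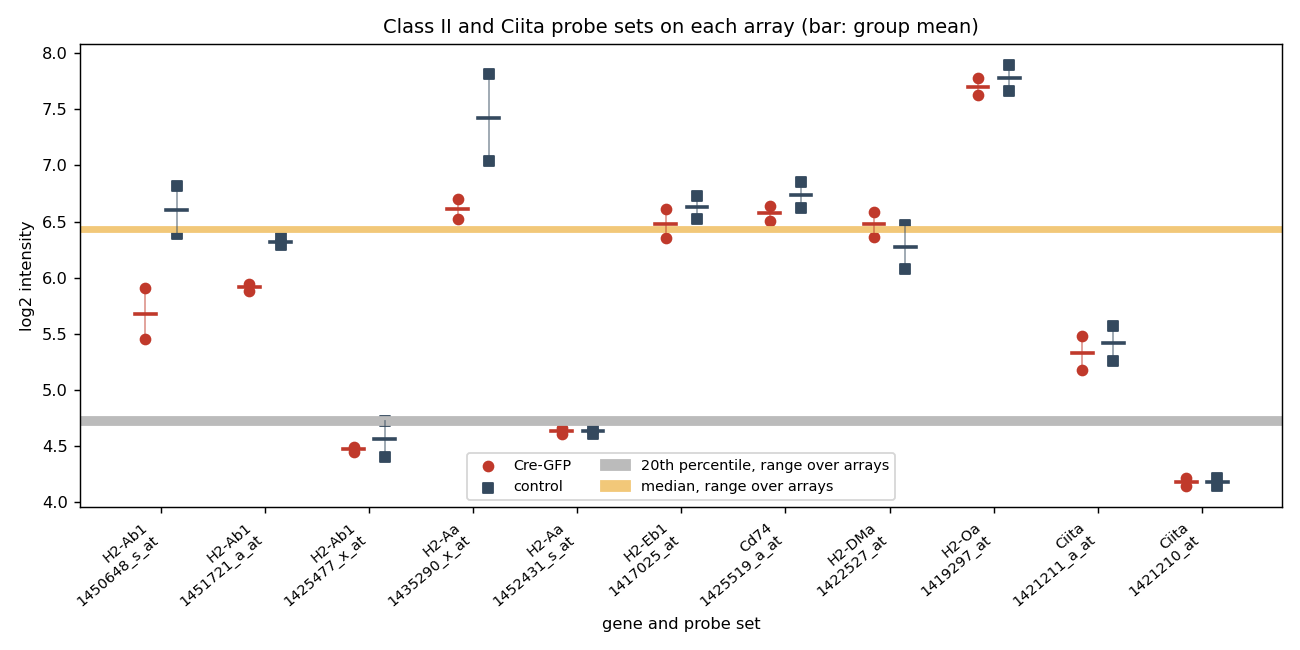
Log2 intensity (vertical axis) of the 11 member probe sets (horizontal axis) on the 2 Cre-GFP arrays (circles) and the 2 control arrays (squares), with a bar at each group mean; the bands are the range over the 4 arrays of the median and of the 20th percentile of all probe sets. The Cre-GFP points lie below the control points for 2 H2-Ab1 probe sets and 1 of H2-Aa, and the groups overlap for the other 8.

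H2-Eb1, the beta chain of the second class II molecule, read 6.62 and 6.35 in Cre-GFP, against 6.73 and 6.52 in control. These groups overlapped, and the log2 difference was −0.14 ± 0.16 with an interval from −0.53 to 0.25. The gene of its alpha partner, H2-Ea, is listed as a transcribed pseudogene in the RefSeq table, which is of C57BL/6J mice. H2-Ea is no member and read 7.92 and 7.79 in Cre-GFP, against 7.86 and 7.77 in control on its brightest probe set.

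Cd74, the invariant chain that escorts new class II molecules, read 6.64 and 6.50 in Cre-GFP, against 6.85 and 6.62 in control. Its lower control array lay between its Cre-GFP arrays, and the log2 difference was −0.16 ± 0.15 with an interval from −0.53 to 0.20. H2-DMa, the alpha chain of the peptide exchanger, read 6.37 and 6.59 in Cre-GFP, against 6.47 and 6.07 in control, and was the 1 member with a higher Cre-GFP mean. Its log2 difference was 0.21 ± 0.18 (interval −0.23 to 0.64), and without control 1 it was 0.40, without control 2 0.01. H2-Oa, the alpha chain of the H2-DM inhibitor, read 7.78 and 7.62 in Cre-GFP, against 7.66 and 7.89 in control. The spread within its groups exceeded the log2 difference of −0.08 ± 0.17 (interval −0.49 to 0.34).

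Ciita, the coactivator of the whole set, read 5.48 and 5.18 in Cre-GFP, against 5.57 and 5.26 in control on its brighter probe set (1421211_a_at). The first array of each group was the higher one, by 0.30 and 0.31, and the log2 difference between the groups was −0.09 ± 0.16 (interval −0.48 to 0.31). Its other probe set (1421210_at) read 4.21 and 4.14 in Cre-GFP, against 4.15 and 4.21 in control, under the 20th percentile on all 4 arrays, with a log2 difference of −0.00 ± 0.09. A log2 difference of −0.92, that of the brightest H2-Ab1 probe set, lay outside both intervals, while −0.41, that of the second, lay inside the interval of the brighter Ciita probe set. The interval of the brightest H2-Ab1 probe set (−1.45 to −0.40) itself overlapped that of the brighter Ciita probe set. Differences of dim probe sets are compressed by the summary method.

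A mean at or above the median of all probe sets was found for 4 of the 11, H2-Oa, the brighter H2-Aa, Cd74 and H2-Eb1, and 3 of the 11 had a mean below the 20th percentile. Probe sets differ in brightness at the same RNA level, so these positions do not rank the members by abundance. In these bulk samples fewer cells carrying class II and less class II RNA per cell cannot be told apart.

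**Figure D2:**
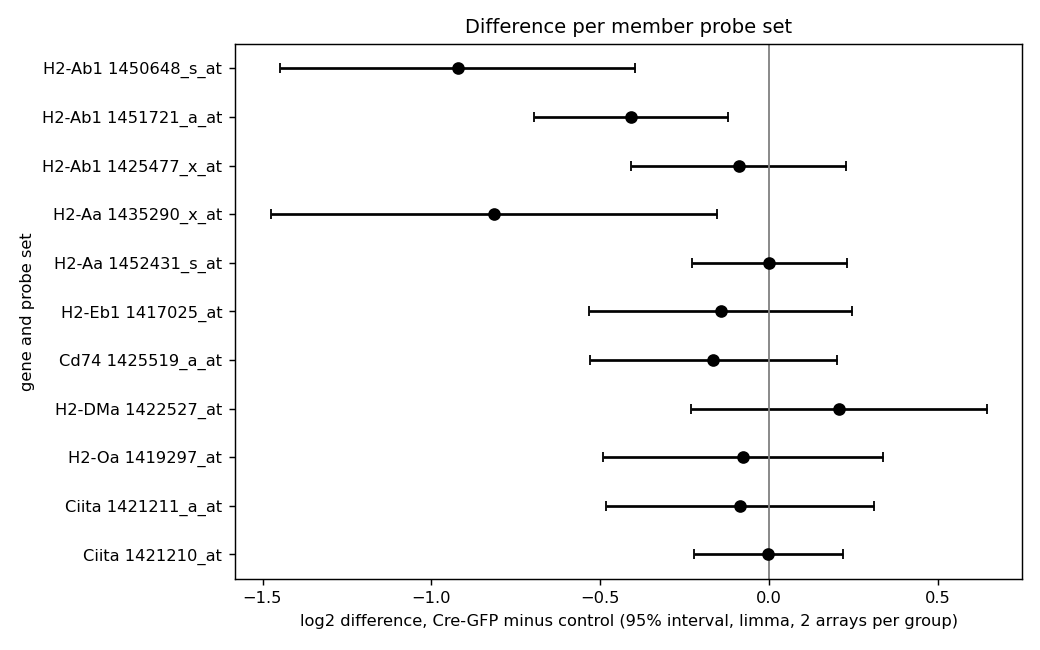
Log2 difference (horizontal axis, Cre-GFP minus control) of each member probe set with its 95% interval from limma, 2 arrays per group. The intervals of 2 H2-Ab1 probe sets and 1 H2-Aa probe set lie below 0 and the other 8 include 0; none passed after adjustment over all probe sets.

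Whether H2-Ab1 was matched by its partner and by the loading genes was asked of the difference itself, as log2 H2-Ab1 (1450648_s_at) minus log2 of the other probe set on each array. Against H2-Aa (1435290_x_at) these differences were −0.61 and −1.25 in Cre-GFP, against −1.42 and −0.22 in control. They overlapped, and the change of H2-Ab1 exceeded that of H2-Aa by −0.11 ± 0.44 (interval −0.97 to 0.75), an interval too wide to say that both chains moved alike. Against Cd74 the differences were −0.74 and −1.05 in Cre-GFP, against −0.46 and 0.19 in control, and against H2-Eb1 −0.71 and −0.90 in Cre-GFP, against −0.34 and 0.29 in control. H2-Ab1 was therefore lower relative to both in each Cre-GFP array than in each control array, by −0.76 ± 0.43 and −0.78 ± 0.42. Relative to H2-DMa it was lower by −1.13 ± 0.42, to H2-Oa by −0.85 ± 0.46 and to Ciita (1421211_a_at) by −0.84 ± 0.40. Without control 2 the gaps were −0.43 for Cd74, −0.46 for H2-Eb1, −0.72 for H2-DMa and −0.47 for Ciita, and over the runs without 1 array they reached −1.08, −1.10, −1.54 and −1.20; that for H2-Oa lay between −0.996 and −0.69. With the second H2-Ab1 probe set in place of the brightest, the gaps were −0.24 for Cd74, −0.27 for H2-Eb1, −0.33 for H2-Oa, −0.32 for Ciita and −0.62 for H2-DMa.

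None of these gaps passed in limma, with adjusted p = 0.061 for H2-DMa, 0.064 for this Ciita probe set, 0.083 for H2-Oa, 0.084 for H2-Eb1 and 0.092 for Cd74, against 0.81 for H2-Aa (1435290_x_at). The adjusted p was under 0.05 for all 5 of these genes without the intensity trend, from 0.020 to 0.046, and up to 0.494 under other settings. Every such difference holds the same H2-Ab1 values, so they share its error and the p-values and intervals are too small: 14218 of 20392 probe sets had an unadjusted p under 0.05, and 289 (1.42%) passed after adjustment. An exact permutation of 2 against 2 arrays cannot go below 0.333, two-sided, which was its value for each of these 5 genes; it was 1 for H2-Aa. The gap had non-overlapping groups for 9 of 10 other member probe sets, the exception being H2-Aa (1435290_x_at), and for 96.1% of all probe sets, so the loading genes stood to H2-Ab1 as nearly all probe sets did.

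**Figure D3:**
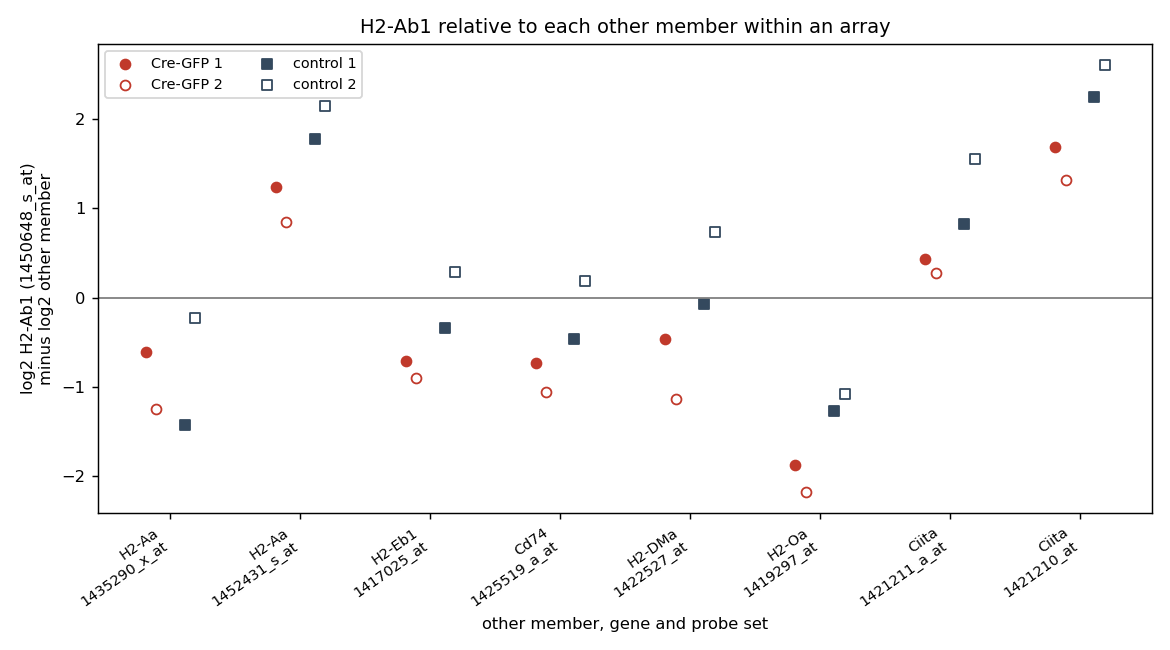
Log2 H2-Ab1 (1450648_s_at) minus log2 of each other member probe set (vertical axis) on Cre-GFP 1 and 2 (circles) and control 1 and 2 (squares). The 4 arrays overlap for H2-Aa 1435290_x_at, while for the 7 other probe sets drawn both Cre-GFP arrays lie below both control arrays.

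Along chromosome 17, H2-Ab1 and H2-Aa are neighbours in the RefSeq gene order, between H2-Ob and H2-Eb1. The class I peptide transporter genes Tap1 and Tap2 and the immunoproteasome genes Psmb8 and Psmb9 lie between H2-DMb1 and H2-Ob. On their brightest probe sets, 2 of the 12 measured genes from H2-Oa to H2-Ea, the H2-A pair, had both Cre-GFP arrays below both control arrays. Of all genes, 14.9% did so, a similar share, and the other 10 genes of the region overlapped. Differences of the other 10 ran from −0.16 for Tap1 to 0.21 for H2-DMa. On the other Tap1 probe sets (−0.24, −0.21 and −0.10) both Cre-GFP arrays lay below both control arrays. Of these, those at −0.21 and −0.10 were under the 20th percentile on all arrays. The other H2-Ea probe sets, also that dim, had both Cre-GFP arrays below (−0.20) and above (0.11) both control arrays. Cd74 lies on chromosome 18 and Ciita on chromosome 16.

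**Figure D4:**
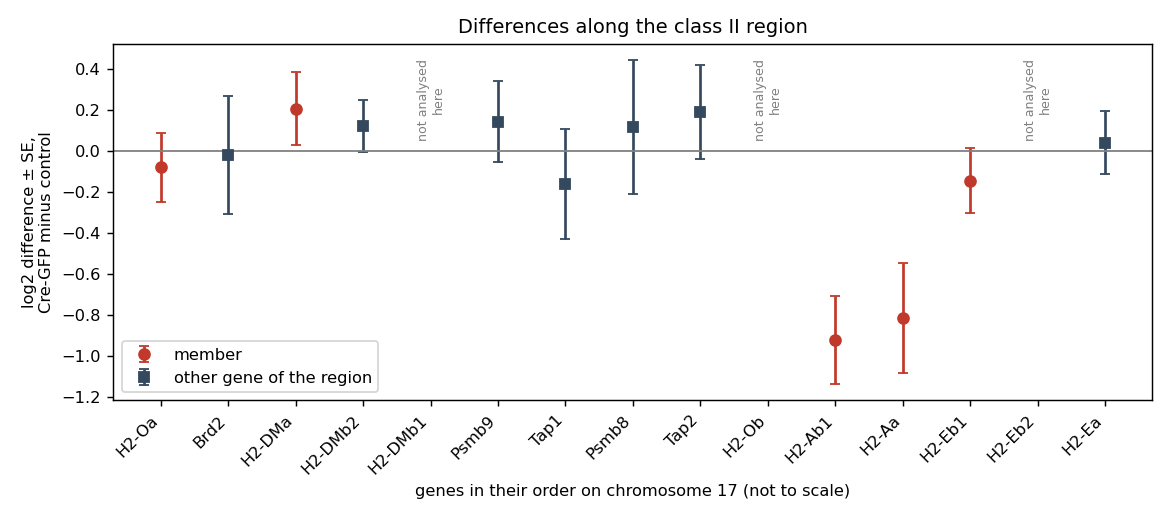
Log2 difference (Cre-GFP minus control) ± SE of the brightest probe set of each gene, in the order of the genes on chromosome 17 and not to scale; circles are members and squares other genes of the region. H2-Ab1 at −0.92 and H2-Aa at −0.82 lie lowest, and the other genes between −0.16 and 0.21.

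Of the 7 enhanceosome genes, 0 passed the threshold and 4 had both Cre-GFP arrays below both control arrays, while 14.9% of all genes did so. Their median log2 difference was −0.17, beside a median of 0.00 for all genes, and was −0.30 without control 1. Nfyc (−0.19 ± 0.16) and Creb1 (−0.23 ± 0.14) were among the 4. On the other probe sets of Creb1 the differences were 0.25, 0.23 and 0.09. At 0.25 both Cre-GFP arrays lay above both control arrays, with all values under the 20th percentile. The RFX subunit gene Rfxank read 7.30 and 7.31 in Cre-GFP, against 7.48 and 7.96 in control (log2 difference −0.42 ± 0.20; −0.23 and −0.02 on its other probe sets). Rfxap, another subunit, read 7.93 and 7.88 in Cre-GFP, against 7.94 and 8.20 in control (−0.17 ± 0.17), and Rfx5, the subunit that contacts DNA with them, 8.45 and 8.33 in Cre-GFP, against 8.10 and 8.74 in control (−0.03 ± 0.25). Both Cre-GFP arrays lay below both control arrays for Rfxank and Rfxap, and the groups of Rfx5 overlapped. In humans, loss of any of these 3 subunits abolishes class II expression in bare lymphocyte syndrome. Of 4 measured coactivators that work with CIITA, 0 had non-overlapping groups (median −0.04, or 0.17 without Cre-GFP 2).

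Of 12 measured genes that regulate Ciita or signal to it, 0 passed and 11 had a lower Cre-GFP mean, as did 49.8% of all genes. Among the 11, Jak1 stood at −0.0012, Spi1 at −0.03 and Prdm1 at −0.04. On the other Jak1 probe sets the differences were 0.22, with both Cre-GFP arrays above both control arrays, and 0.24. The list does not separate genes that raise Ciita from genes that lower it. The median of the 12 genes was −0.09, or −0.26 without Cre-GFP 1 and −0.0092 without Cre-GFP 2. Both Cre-GFP arrays lay below both control arrays for 2, or 16.7%, beside 14.9% of all genes. These were the interferon-gamma receptor chains Ifngr1 (−0.32 ± 0.19) and Ifngr2 (−0.23 ± 0.16), which were named after seeing their values. On the other Ifngr2 probe set the groups overlapped (−0.32 ± 0.31). Spi1 (PU.1, a myeloid and B cell factor) read 7.44 and 7.27 in Cre-GFP, against 7.54 and 7.22 in control, a log2 difference of −0.03 ± 0.18. Irf8, its partner factor, read 10.77 and 10.05 in Cre-GFP, against 10.62 and 10.40 in control (−0.10 ± 0.27). Irf1, which carries the interferon-gamma signal to Ciita, read 9.12 and 8.90 in Cre-GFP, against 9.08 and 9.51 in control (−0.28 ± 0.21). The groups of Spi1, Irf8 and Irf1 overlapped.

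Among the 8 measured genes of class II processing and turnover, 0 passed. Both Cre-GFP arrays lay below both control arrays for 2 and above them for 2, against 14.9% and 15.2% of all genes. Ifi30, the lysosomal thiol reductase that opens antigens for class II loading, read 8.79 and 9.31 in Cre-GFP, against 9.71 and 9.85 in control. Its log2 difference was −0.73 ± 0.22 (limma adjusted p = 0.85, unadjusted p = 0.018), the lowest of this list. Cd83, which keeps class II on the surface, read 4.20 and 4.15 in Cre-GFP, against 3.90 and 3.98 in control, values under the 20th percentile (0.24 ± 0.09, limma adjusted p = 0.99). Ctss (cathepsin S), the protease that trims the invariant chain, read 9.77 and 9.89 in Cre-GFP, against 9.50 and 9.94 in control, with overlapping groups (0.11 ± 0.21).

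In the class I pathway, 0 of 12 measured genes passed, and the median log2 difference was −0.0022. Both Cre-GFP arrays lay below both control arrays for 1 and above for 1, against 14.9% and 15.2% of all genes. B2m, the light chain of class I, read 11.44 and 11.77 in Cre-GFP, against 11.29 and 11.98 in control (−0.03 ± 0.26). The class I heavy chain gene H2-K1 (chosen after its values were seen) had 11.93 and 12.08 in Cre-GFP, against 11.43 and 12.83 in control, so its control arrays enclosed its Cre-GFP arrays. Of 5 costimulation genes, 0 passed and 1 had both Cre-GFP arrays below both control arrays, with log2 differences from −0.09 to 0.12. The 3 measured other genes of the class II region overlapped, at −0.02 to 0.12.

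Markers of the cell types that carry class II were read in the same arrays, and their genes named here were chosen after their values were seen. Of 11 measured B lineage markers, 6 had both Cre-GFP arrays below both control arrays and 0 above, against 14.9% and 15.2% of all genes. Their median log2 difference was −0.42, or −0.24 without control 2. Their summed intensity was 29797 and 30076 in Cre-GFP, against 34894 and 39719 in control. Such a sum follows the brightest probe sets of its list, and Igll1 and Vpreb1 made up most of this one. Cd79a, a chain of the B cell receptor, read 8.99 and 8.69 in Cre-GFP, against 9.45 and 9.82 in control (−0.80 ± 0.21), and Ms4a1 (CD20), a marker of more mature B cells, 5.33 and 5.04 in Cre-GFP, against 5.52 and 5.79 in control (−0.47 ± 0.15). Cd79b, the other signalling chain, read 9.72 and 8.60 in Cre-GFP, against 10.46 and 11.27 in control (−1.70 ± 0.43), and the B cell factor Ebf1 11.71 and 11.60 in Cre-GFP, against 12.30 and 12.03 in control (−0.51 ± 0.15). Igll1, a surrogate light chain gene of pro-B and pre-B cells, read 13.60 and 13.67 in Cre-GFP, against 13.82 and 13.83 in control, and Blnk was the sixth with Cre-GFP below. The groups overlapped for the other surrogate light chain gene, Vpreb1, at 13.28 and 13.42 in Cre-GFP, against 13.38 and 13.80 in control, and for Blk, Cd22 (log2 difference −0.13), Pax5 (−0.07) and Rag1 (0.23). Of the 6, the other probe sets differed by −0.55 and −0.38 for Ebf1, −0.12 for Igll1 and −0.12 for Ms4a1. The groups overlapped on all of these but the Ebf1 probe set at −0.55. That of Ms4a1 was under the 20th percentile on all arrays. None of the 11 passed the threshold, and the part of B lineage cells in the H2-Ab1 and H2-Aa differences was not tested.

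Of 10 measured dendritic markers, 4 had both Cre-GFP arrays above and 1 below both control arrays, against 15.2% and 14.9% of all genes. Their median was 0.05, with a summed intensity of 851 and 799 in Cre-GFP, against 776 and 771 in control. The 1 below was Ccr7, the lymph node homing receptor, at 6.38 and 6.29 in Cre-GFP, against 7.30 and 6.88 in control. Bst2, a surface protein of plasmacytoid dendritic cells, was above, at 7.61 and 7.56 in Cre-GFP, against 6.52 and 7.31 in control (0.67 ± 0.27). Over the 4 arrays the cytokine receptor Flt3 lay at 7.98 to 8.23, Itgax at 5.58 to 5.76, Zbtb46 at 5.48 to 5.84 and Xcr1 at 5.04 to 5.18, and 1 of the 10 was under the 20th percentile on all arrays. Of 9 measured monocyte and macrophage markers, 3 had both Cre-GFP arrays above both control arrays and 0 below, with a median of 0.11 (0.25 without Cre-GFP 2, 0.046 without Cre-GFP 1 and 0.54 without the dimmest 40% of probe sets) and a summed intensity of 2145 and 1480 in Cre-GFP, against 847 and 1295 in control; 2 of the 9 were under the 20th percentile on all arrays. The 3 above were Csf1r, the CSF-1 receptor of macrophages (1.13 ± 0.34), Lyz2, lysozyme (0.98 ± 0.41), and the chemokine receptor Ccr2 (0.42 ± 0.19). The other probe sets differed by 0.36 and 0.17 for Csf1r and by 0.04 and −0.05 for Ccr2. Those of Ccr2 were under the 20th percentile on all arrays. The groups overlapped for Cd68 (0.49), Cd14 (0.11), Itgam (0.08), Fcgr1 (0.07), Adgre1 (−0.04) and Mrc1 (−0.07). The part of these cell types in the class II values was not tested. Of 4 plasma cell markers 1, the immunoglobulin joining chain Jchain (0.48 ± 0.11), was above and 0 below (median 0.25, or 0.017 without control 2), and of 3 measured T and NK markers 0 were above and 1 below (median 0.0054).

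The 5 genes outside the set whose centred log2 values over the 4 arrays lay nearest to those of H2-Ab1 (1450648_s_at), by Euclidean distance, were Cytip, Cd79a, Bcar3, Rapgef3 and Traf3ip2, at distances of 0.12 to 0.18. Cytip read 11.31 and 11.00 in Cre-GFP, against 11.83 and 12.34 in control. Cd79a followed at a distance of 0.17. With 4 arrays this likeness is a description. Of the members, the second H2-Ab1 probe set was nearest, at a distance of 0.64, while H2-Aa (1435290_x_at) lay at 0.96, Cd74 at 0.92 and H2-DMa at 1.35.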

How the data were processed

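Expression was measured with Affymetrix mouse arrays, 2 of Cre-GFP and 2 of control cells. The values analysed were intensities per probe set as deposited, not logged, which came from RMA per the submitters' processing notes, in a version not given in the sources used here; RMA normally corrects background, equalizes arrays by quantiles and compresses differences at low intensity. Median intensities were 85.1 to 87.7. Values were put on log2 and not normalized again. Of 22690 probe sets, 64 of them control probe sets, 20393 had exactly 1 gene symbol in the platform annotation, 691 had several and 1606 none. The first kind was tested, and 20364 of these matched RefSeq (GRCm38.p6) by gene number. The comparison used limma 3.58.1 under R 4.3.3 (lmFit, eBayes with intensity trend, two-sided, Benjamini-Hochberg over all probe sets, threshold 0.05), tested on simulated data. Each gene is represented in list counts by its brightest probe set. Log2 differences are Cre-GFP minus control, ± limma's SE; depth has no meaning for arrays, and their number limits the precision. Scan dates were not used here.

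Members, lists and motifs were chosen with earlier results of these data known. All member probe sets are named, and pathway list members with an unadjusted p under 0.05 (at most 4 per list) plus Rfx5, Rfxank, Rfxap, Spi1, Irf8, Irf1, Ctss and B2m; another gene of this rule is not reported here. Cell type markers, H2-K1, Creb1, Nfyc, Jak1, Prdm1 and the interferon-gamma receptor chains were named after their values were seen. Alternatives were a dim filter, raised dim values, renewed quantile normalization, no trend, 1 probe set per gene, no shared probe sets, the replicate number as a block, each array left out, and another H2-Ab1 probe set.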

Additional observations from a re-analysis of the deposited data

How the results depend on the processing

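No member probe set passed the threshold under any alternative run. H2-Ab1 (1450648_s_at) kept a lower Cre-GFP mean in all 10, with log2 differences between −1.15 and −0.70 over the 4 runs without 1 array and limma adjusted p from 0.218 to 0.985, and H2-Aa (1435290_x_at) in its 10 (−1.20 to −0.43). The run called without shared probe sets left out all those with names ending in _s_at, _x_at or _a_at. The name alone does not show that a probe set is shared with another gene. In that run neither H2-Ab1 nor H2-Aa was measured, nor Cd74. All 3 member probe sets with non-overlapping groups have such names, _s_at and _a_at for H2-Ab1 and _x_at for H2-Aa. The member probe sets left in that run all overlapped. Whether any probe set left out there also binds RNA of other genes was not tested. Counts past the threshold were 0 to 25 when single arrays were left out (25 without control 1, 1 without control 2) and 0 otherwise. With the replicate number as a block, H2-Ab1 stayed at −0.92 (limma adjusted p = 0.60) and 0 probe sets passed (1547 at an unadjusted p under 0.05, against 976); same-numbered arrays deviated together (r = 0.36 across probe sets, 2 pairs), but no label says that a number marks a shared source.

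Directions turned for values near 0: Ciita (1421210_at) was 0.0011 when quantile normalized again, and single arrays left out gave −0.039 to 0.035 for it, −0.24 to 0.070 for Ciita (1421211_a_at), −0.25 to 0.068 for H2-Ab1 (1425477_x_at) and −0.19 to 0.039 for H2-Oa. List medians that turned were −0.073 for class II processing without shared probe sets, 0.016 and 0.046 for class I when quantile normalized again and without shared probe sets, and −0.0036 for T and NK markers with dim values raised. Single arrays left out gave −0.12 to 0.17 for coactivators, −0.035 to 0.30 for processing, −0.24 to 0.33 for class I, −0.13 to 0.025 for costimulation, −0.021 to 0.10 for other class II region genes, −0.015 to 0.16 for dendritic and −0.19 to 0.10 for T and NK markers. The cause was not tested.

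H2-Ab1 minus H2-Aa (1435290_x_at) turned to 0.41 with the second H2-Ab1 probe set and lay between −0.71 and 0.49 over the runs without 1 array. Gaps that passed only under an alternative were, without the intensity trend, Cd74 (−0.76), H2-Eb1 (−0.78), H2-Oa (−0.85), H2-DMa (−1.13), Ciita (−0.92 and −0.84), H2-Aa (1452431_s_at, −0.92) and H2-Ab1 (1425477_x_at, −0.83). With dim values raised these were Ciita (1421210_at) and H2-Aa (1452431_s_at) at −0.92, H2-Ab1 (1425477_x_at) at −0.91 and H2-DMa at −1.13, and when quantile normalized again −0.93, −0.93, −0.84 and −1.12 for the same 4. With the second H2-Ab1 probe set they were −0.41 for Ciita (1421210_at), −0.41 for H2-Aa (1452431_s_at) and −0.62 for H2-DMa, while those to Cd74, H2-Eb1, H2-Oa and Ciita (1421211_a_at) were −0.24 to −0.33 and did not pass (adjusted p = 0.123 to 0.208). The second H2-Ab1 probe set was chosen after seeing the data.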
